A study of Mus musculus with 9 samples.

Results

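Aminoacyl-tRNA synthetases are the enzymes that load each amino acid onto its transfer RNA. Their genes were taken from the deposited expression table by symbol, from a list of 36 genes. Of these, 35 were in the table and 35 were among the 13018 of 14940 genes that passed the filter on low values. They comprise 20 genes of the cytosolic set and 15 genes of the mitochondrial set, whose symbols end in 2. Pars2 was not analysed here.

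RNA came from bone marrow cells of 9 C57BL/6 mice that were sorted as LSK, that is without lineage markers and with Sca1 and cKit on their surface. This population holds blood stem cells and multipotent progenitors. The first group was 3 mice immunized for experimental autoimmune encephalomyelitis (EAE) and given SR59230A, an antagonist of the β3-adrenergic receptor, for 3 days. The second was 3 EAE mice taken 3 days after immunization, and the third was 3 naive mice. Immunization used the myelin oligodendrocyte glycoprotein peptide MOG35-55 given with complete Freund's adjuvant, which contains killed mycobacteria in oil. No group received adjuvant alone and the labels name no vehicle, so the peptide cannot be told apart from the adjuvant, nor SR59230A from its administration. The labels give no age or sex of the mice and describe each library as 1 mouse.

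Each enzyme recognises 1 amino acid and its transfer RNAs, except that the product of Eprs charges both glutamate and proline and that phenylalanine needs subunits from Farsa and Farsb. In the cytosol several synthetases are held in a large multi-synthetase complex with scaffold proteins, while the others act free of it. A separate set, encoded in the nucleus, works in mitochondria, although Gars and Kars supply both compartments. The enzymes fall into class I and class II by the fold of their catalytic domain. Many cytosolic synthetase genes are known targets of Atf4, the transcription factor of the amino acid response, which acts through C/EBP-ATF response elements. In blood stem cells, low protein synthesis is a known feature of the resting state.

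The numbers in the deposited table had been adjusted and cannot be read counts. Sequencing depth is therefore unknown, and counting intervals are not given. The numbers summed to between 8641735 and 10387955 per library and were scaled by median-of-ratios factors, giving the scaled values used here. Fold changes are differences of log2(scaled value + 1) with their standard error (SE), tested with limma-trend, and a gene is called where the Benjamini-Hochberg adjusted p over all 13018 genes is under 0.05. Some variation within groups is missing from the deposited values, so the spread between replicates may be understated. Of the genes that define the sort, Kit averaged 5049 in treated, 5116 in EAE and 6876 in naive libraries. Ly6a, which encodes Sca1, averaged 2433 in treated, 2099 in EAE and 1531 in naive libraries. Both were present in every library.

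In EAE mice 14 of the 20 cytosolic synthetase genes rose against naive mice and 0 fell. Over all tested genes, 9.13% rose and 5.1% fell. The median log2 fold change of the 20 genes was 0.40 (1.32-fold), from -0.10 for Vars to 0.83 for Aars, against 0.00 over all tested genes. In 16 of the 20 genes every EAE library lay above every naive library, which was true of 21% of all genes, while 0 of the 20 lay wholly below, against 18.4% of all genes. The called genes rose between 1.29-fold and 1.78-fold. Since these are bulk samples, a change in the cells' makeup and a change of RNA per cell cannot be told apart.

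Other features of the libraries moved with this result. Markers of granulocyte-monocyte progenitors, a more mature cell type, were higher in immunized mice. Their 8 genes summed to 15468 to 16457 in treated, 15487 to 22285 in EAE and 3553 to 4304 in naive libraries, with none at 0. In EAE 7 of the 8 were called higher, beside 9.13% of all genes. The EAE calls of Cebpe and Csf3r were lost without EAE replicate 1 or naive replicate 1 (limma-trend adjusted p from 0.0614 to 0.104). The part of these markers in the result was not tested. The share of the deposited sum held by 1101 olfactory, vomeronasal and trace amine receptor genes, known from sense organs, was 0.0765% to 0.0948% in treated, 0.102% to 0.116% in EAE and 0.144% to 0.172% in naive libraries. These ranges do not overlap, so this share and the group cannot be told apart. With the share as a term of the model, the median of the cytosolic genes in EAE against naive was 0.53, 1 of 20 was called (Aars), and 63 genes in all rose. Without scaling, 8 of the 20 were called, and the median was 0.37. Upper-quartile scaling turned the balance of all calls, to 807 higher and 910 lower in place of 1189 and 664, and called 11 of the 20.

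**Figure D1:**
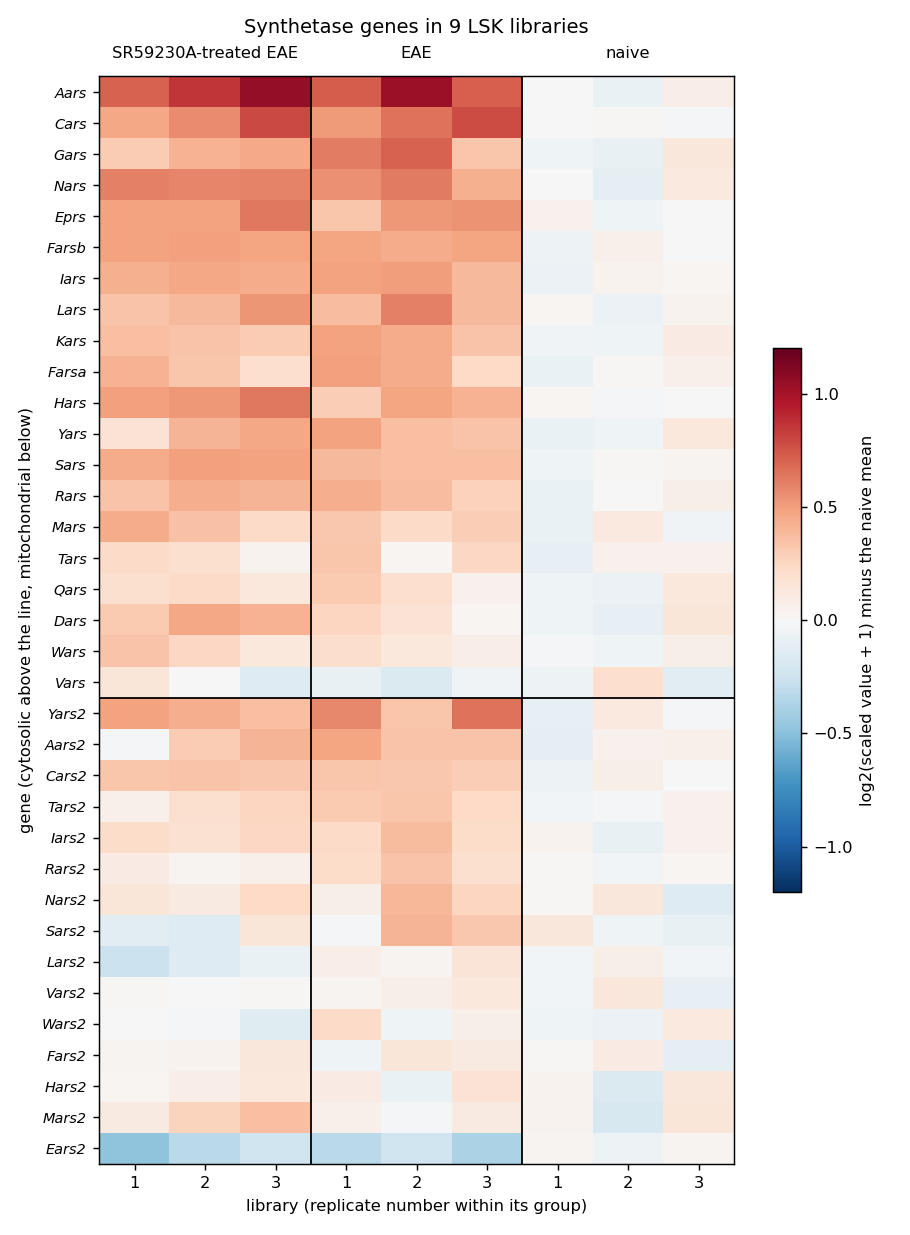
Heat map of the 35 synthetase genes (rows, cytosolic above the line and mitochondrial below) in the 9 libraries (columns, by group and replicate). Colour is log2(scaled value + 1) minus the gene's naive mean, and the upper block is red in nearly all treated and EAE libraries, with Vars the exception, while the lower block is mixed and Ears2 is blue.

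Among the cytosolic enzymes outside the complex, Aars, which encodes the alanine enzyme, changed most. It stood at 1947, 2153 and 2479 in treated libraries, 1975, 2428 and 1957 in EAE libraries, and 1190, 1125 and 1259 in naive libraries. All 6 libraries of immunized mice lay above all 3 naive ones. It was 1.78-fold higher in EAE than in naive mice (log2 fold change 0.83 ± 0.12 SE, limma-trend adjusted p = 0.00125), and it was called in EAE against naive under all 18 alternatives tried. Cars, for cysteine, had 1002, 1078 and 1256 in treated, 1039, 1144 and 1253 in EAE, and 729, 734 and 717 in naive libraries. The naive values lay within a narrow band below all others, and Cars was 1.58-fold higher in EAE than in naive mice (0.66 ± 0.11, limma-trend adjusted p = 0.00298).

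Nars, for asparagine, stood at 2734, 2701 and 2711 in treated, 2626, 2767 and 2420 in EAE, and 1787, 1669 and 1946 in naive libraries. The groups of immunized mice did not overlap with the naive group, and Nars was 1.45-fold higher in EAE (0.54 ± 0.09, limma-trend adjusted p = 0.00382). Gars, for glycine, stood at 1100, 1188 and 1224 in treated, 1362, 1460 and 1123 in EAE, and 860, 840 and 979 in naive libraries. All naive libraries were lowest here too, and the EAE libraries spread widely, with a 1.47-fold difference from naive (0.56 ± 0.12, limma-trend adjusted p = 0.00927).

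The 2 phenylalanine subunit genes stood near each other in size of change. Farsb, for the beta subunit, had 1297, 1302 and 1292 in treated, 1291, 1261 and 1290 in EAE, and 888, 965 and 932 in naive libraries. The 6 libraries of immunized mice were nearly level, and Farsb was 1.38-fold higher in EAE (0.47 ± 0.08, limma-trend adjusted p = 0.00437). Farsa, for the alpha subunit, had 963, 912 and 832 in treated, 1017, 984 and 854 in EAE, and 683, 731 and 754 in naive libraries. Its groups did not overlap with naive either, and it rose in EAE by 0.40 ± 0.11 (limma-trend adjusted p = 0.0283).

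Sars, for serine, had 2845, 2936 and 2926 in treated, 2735, 2687 and 2678 in EAE, and 2022, 2111 and 2143 in naive libraries. The libraries of each group lay close together, and Sars was 1.29-fold higher in EAE than in naive mice (0.37 ± 0.08, limma-trend adjusted p = 0.0125). Hars, for histidine, had 1282, 1309 and 1411 in treated, 1121, 1264 and 1215 in EAE, and 925, 896 and 914 in naive libraries. Every treated library was above every EAE library and every EAE library above every naive one. In 1101 of all 13018 genes every treated library lay above every EAE library. Hars was 1.32-fold higher in EAE than in naive mice (0.40 ± 0.09, limma-trend adjusted p = 0.0144). Yars, for tyrosine, had 707, 829 and 862 in treated, 874, 805 and 796 in EAE, and 594, 606 and 682 in naive libraries. Naive libraries were again lowest, and Yars rose in EAE by 0.40 ± 0.11 (limma-trend adjusted p = 0.0322).

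Not every gene outside the complex followed. Wars, for tryptophan, is known to be induced by interferon-gamma. It stood at 1031, 965 and 887 in treated, 942, 890 and 862 in EAE, and 804, 785 and 856 in naive libraries. The naive libraries were lowest, but the difference between EAE and naive was 0.14 ± 0.10 and was not called (limma-trend adjusted p = 0.373, 95% interval of the difference -0.07 to 0.35). Tars, for threonine, averaged 293 ± 20.3 in treated, 304 ± 33.5 in EAE and 264 ± 14.9 in naive libraries (SD, n = 3 each), a log2 fold change of 0.20 ± 0.13 in EAE (limma-trend adjusted p = 0.333). Vars, for valine, had 1308, 1186 and 1064 in treated, 1112, 1048 and 1149 in EAE, and 1129, 1363 and 1072 in naive libraries. The 3 groups of Vars overlapped, with a log2 fold change of -0.10 ± 0.12 in EAE (limma-trend adjusted p = 0.604, 95% interval -0.36 to 0.15).

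Of the 8 enzyme genes of the multi-synthetase complex, 5 rose in EAE against naive mice, with a median log2 fold change of 0.39. Of the 12 cytosolic genes outside the complex 9 rose, with a median of 0.40. Over all genes 9.13% rose. Eprs, for the fused glutamate and proline enzyme, had 4923, 4915 and 5450 in treated, 4426, 5029 and 5099 in EAE, and 3634, 3382 and 3525 in naive libraries. The naive libraries lay well below the rest, and Eprs was 1.38-fold higher in EAE (0.47 ± 0.10, limma-trend adjusted p = 0.00982). Iars, for isoleucine, had 1544, 1576 and 1565 in treated, 1603, 1625 and 1503 in EAE, and 1094, 1180 and 1164 in naive libraries. Treated and EAE libraries covered nearly the same range, and Iars was 1.38-fold higher in EAE than in naive mice (0.46 ± 0.09, limma-trend adjusted p = 0.00502).

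Lars, whose product charges leucine and is also known as a leucine sensor for mTORC1, had 2299, 2379 and 2620 in treated, 2349, 2767 and 2377 in EAE, and 1850, 1728 and 1870 in naive libraries. Its naive libraries were lowest, and it was 1.37-fold higher in EAE (0.46 ± 0.10, limma-trend adjusted p = 0.0114). Kars, for lysine, had 1896, 1883 and 1832 in treated, 2075, 2011 and 1872 in EAE, and 1436, 1430 and 1581 in naive libraries. The naive group stood apart, and Kars was 1.34-fold higher in EAE (0.42 ± 0.09, limma-trend adjusted p = 0.00954). Rars, for arginine, had 1296, 1386 and 1363 in treated, 1384, 1328 and 1242 in EAE, and 973, 1026 and 1079 in naive libraries. The groups of immunized mice lay above the naive group, and Rars was 1.29-fold higher in EAE (0.36 ± 0.09, limma-trend adjusted p = 0.0213).

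The other 3 enzymes of the complex were not called in EAE against naive mice. Dars, for aspartate, had 3878, 4317 and 4180 in treated, 3724, 3516 and 3165 in EAE, and 3016, 2926 and 3451 in naive libraries. EAE and naive libraries overlapped (0.15 ± 0.10, limma-trend adjusted p = 0.383), while every treated library lay above both other groups. Treated libraries lay wholly above EAE in 1101 of all 13018 genes. Mars, for methionine, had 873, 817 and 753 in treated, 802, 754 and 786 in EAE, and 608, 697 and 623 in naive libraries. Its naive libraries were lowest, and the EAE difference was 0.28 ± 0.10 (limma-trend adjusted p = 0.0865). Qars, for glutamine, averaged 1279 ± 43.8 in treated, 1286 ± 117 in EAE and 1128 ± 87.7 in naive libraries (SD, n = 3 each), a difference of 0.19 ± 0.10 in EAE (limma-trend adjusted p = 0.247).

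Some of the cytosolic calls lay near the cut and were lost when 1 library was left out. Without naive replicate 1 Farsa, Rars and Yars were no longer called in EAE against naive (limma-trend adjusted p = 0.0703, 0.0532 and 0.077), with log2 fold changes of 0.35, 0.32 and 0.36. Yars was also not called without EAE replicate 1 (adjusted p = 0.052). Across the libraries left out in turn, 11 to 15 of the 20 cytosolic genes were called.

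**Figure D2:**
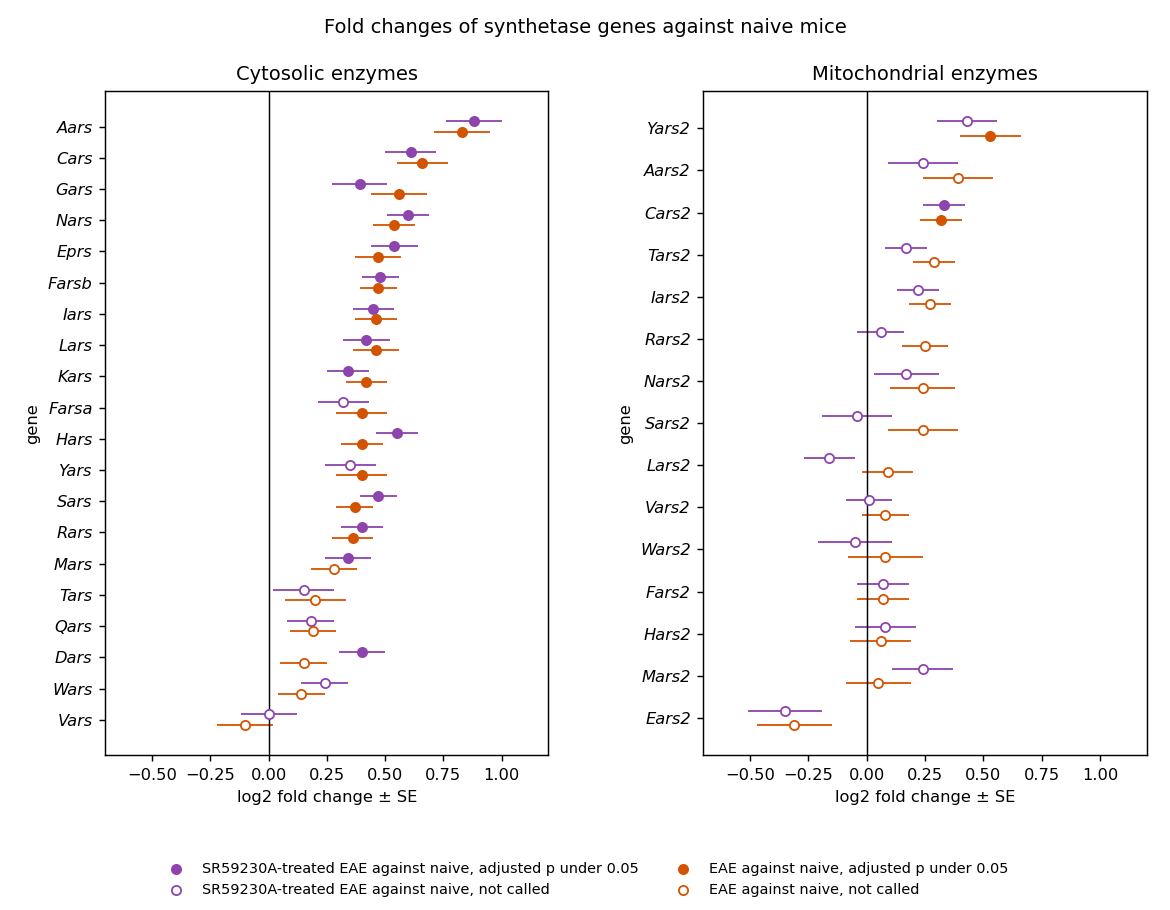
Log2 fold change against naive mice for each cytosolic (left) and mitochondrial (right) synthetase gene, in treated EAE (purple) and EAE (orange) mice. Bars are SE, and filled points have a limma-trend adjusted p under 0.05. Cytosolic points lie right of 0 except for Vars, and the mitochondrial ones spread from Ears2 at -0.31 in EAE to Yars2 at 0.53.

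The promoters of these genes were searched for the C/EBP-ATF response element, the motif through which Atf4 is known to act in the amino acid response, written TGATGNAA and sought on both strands. RefSeq promoters on GRCm38.p6, 250 bases before to 50 bases after the annotated start, were found by symbol for 27 of the listed genes, 13 cytosolic and 14 mitochondrial. The motif was in 5 of them, Aars, Gars, Iars, Tars and Yars, all cytosolic, and in 0 of the 14 mitochondrial promoters. Of 27025 gene symbols with such a promoter, 4.51% held it. The 5 windows below, from 120 bases before to 30 bases after the start, are shown because they carry the motif, in capitals. A motif on the opposite strand reads TTNCATCA.
Aars, chr8:111033722-111033871, plus strand: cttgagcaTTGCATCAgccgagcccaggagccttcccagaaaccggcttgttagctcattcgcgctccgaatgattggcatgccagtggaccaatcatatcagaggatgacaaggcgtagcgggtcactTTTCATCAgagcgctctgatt
Gars, chr6:55037881-55038030, plus strand: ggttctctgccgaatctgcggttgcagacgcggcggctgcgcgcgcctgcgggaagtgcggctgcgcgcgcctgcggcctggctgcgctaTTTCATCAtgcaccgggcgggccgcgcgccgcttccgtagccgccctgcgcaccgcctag
Iars, chr13:49682010-49682159, plus strand: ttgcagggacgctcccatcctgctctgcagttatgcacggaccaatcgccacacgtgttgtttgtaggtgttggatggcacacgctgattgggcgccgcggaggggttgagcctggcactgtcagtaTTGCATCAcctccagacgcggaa
Tars, chr15:11399629-11399778, minus strand: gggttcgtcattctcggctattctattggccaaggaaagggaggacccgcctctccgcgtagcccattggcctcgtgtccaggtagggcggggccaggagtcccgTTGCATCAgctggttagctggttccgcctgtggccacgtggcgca
Yars, chr4:129189783-129189932, plus strand: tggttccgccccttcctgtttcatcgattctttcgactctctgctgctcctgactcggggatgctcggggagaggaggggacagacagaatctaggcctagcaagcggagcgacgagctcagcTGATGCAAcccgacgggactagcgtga
The Aars promoter, whose gene had the highest fold change, held the motif at 2 places, and the other promoters at 1 place each. Of the 5 genes with the motif 4 were called higher in EAE, all but Tars. Of the 8 cytosolic genes whose matched promoter did not hold these letters 5 were called. Promoters of the other cytosolic genes were not found by symbol. Of all 20 cytosolic genes 14 were called higher in EAE, beside 9.13% of all tested genes. No difference between these counts was tested. A match describes the letters of the window and is not a measure of binding.

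The calls in the mitochondrial set were near the share over all genes. In EAE against naive mice 2 of the 15 genes were called higher and 0 lower, beside 9.13% and 5.1% of all genes. The median log2 fold change of the 15 genes was 0.24 (1.18-fold), against 0.40 for the cytosolic genes. Of the 15 genes 14 were positive, beside 6452 of all 13018 genes. The difference between the sets was not tested. Yars2, for tyrosine, had 286, 277 and 263 in treated, 306, 259 and 322 in EAE, and 191, 223 and 202 in naive libraries. All naive libraries lay lowest, and Yars2 was 1.44-fold higher in EAE (0.53 ± 0.13, limma-trend adjusted p = 0.022). Cars2, for cysteine, had 750, 758 and 746 in treated, 753, 749 and 732 in EAE, and 572, 626 and 594 in naive libraries. The 6 libraries of immunized mice lay within a narrow band above naive, and Cars2 was 1.25-fold higher in EAE (0.32 ± 0.09, limma-trend adjusted p = 0.0357).

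The count of 2 changed when single libraries were left out. Without naive replicate 1 neither Yars2 nor Cars2 was called (limma-trend adjusted p = 0.0539 and 0.0754), and the count was 0. It was 5 without treated replicate 1 or EAE replicate 3, and 4 without treated replicate 3. Without scaling the count was 0 as well, and with group coefficients alone it was 6.

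In EAE mice 21% of all genes lay wholly above naive. Tars2, Iars2, Aars2 and Rars2, for threonine, isoleucine, alanine and arginine, did so without being called. Their log2 fold changes were 0.29, 0.27, 0.39 and 0.25, with limma-trend adjusted p of 0.0527, 0.0696, 0.121 and 0.112. Nars2, Sars2, Lars2, Vars2, Wars2, Fars2, Hars2 and Mars2 overlapped with naive in EAE and lay between 0.05 and 0.24. Aars2 averaged 176 ± 25.6 in treated, 194 ± 10.1 in EAE and 149 ± 10.3 in naive libraries (SD, n = 3 each), and its treated group overlapped with naive.

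Ears2 gave lower values in immunized mice. In mitochondria its product charges glutamate onto its own transfer RNA and onto that of glutamine, where an amidotransferase then makes glutamine. Ears2 had 95.6, 107 and 113 in treated, 107, 113 and 103 in EAE, and 137, 128 and 137 in naive libraries. Every library of immunized mice lay below every naive library. In treated mice 22.4% of all genes lay wholly below naive, and in EAE mice 18.4% did. The log2 fold changes were -0.35 ± 0.16 in treated and -0.31 ± 0.16 in EAE against naive, and neither was called (limma-trend adjusted p = 0.158 and 0.216). The genes of the amidotransferase gave other values. Gatb rose in EAE by 0.38 ± 0.11 (limma-trend adjusted p = 0.0396), Qrsl1 had 0.34 ± 0.12 (adjusted p = 0.084) and Gatc had 0.00 ± 0.12 (adjusted p = 0.986).

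By catalytic fold, 8 of 19 class I genes and 8 of 16 class II genes rose in EAE against naive mice, with medians of 0.27 and 0.38. Over all genes 9.13% rose there. Against naive, treated mice gave 7 of 19 and 8 of 16, beside 10.2% of all genes, with medians of 0.24 and 0.33. Eprs, whose product joins an enzyme of each class, was counted in class I alone. Both classes hold cytosolic and mitochondrial genes, and no difference between the classes was tested.

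**Figure D3:**
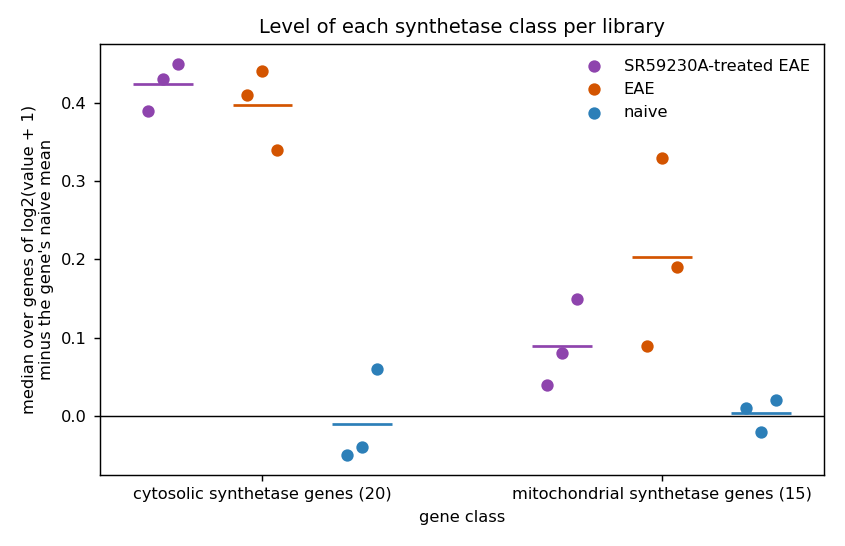
Median over the 20 cytosolic (left) and 15 mitochondrial (right) synthetase genes of log2(scaled value + 1) minus the gene's naive mean, 1 point per library, with a line at each group's mean. The cytosolic medians were 0.39 to 0.45 in treated, 0.34 to 0.44 in EAE and -0.05 to 0.06 in naive libraries, while the mitochondrial ones were 0.04 to 0.15 in treated, 0.09 to 0.33 in EAE and -0.02 to 0.02 in naive libraries.

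In mice that received SR59230A the cytosolic genes were also higher than in naive mice. Of the 20 genes 14 rose and 0 fell, beside 10.2% higher and 4.61% lower over all genes, and the median log2 fold change was 0.40. In 18 of the 20 every treated library lay above every naive one, as in 26.4% of all genes, and 0 lay wholly below, against 22.4% of all genes. Both comparisons use the same 3 naive libraries, so they are not independent. Aars was 1.84-fold higher (0.88 ± 0.12, limma-trend adjusted p = 0.000851) and Nars 1.51-fold (0.60 ± 0.09, adjusted p = 0.00211). Hars was 1.46-fold higher (0.55 ± 0.09, limma-trend adjusted p = 0.0028), and Eprs 1.45-fold (0.54 ± 0.10, adjusted p = 0.00472). Gars rose by 0.39 ± 0.12 (adjusted p = 0.0418), beside 0.56 in EAE. Without scaling, which moved the median of all genes in this comparison to -0.11, the median of the 20 was 0.28 and 5 were called. With upper-quartile scaling 10 of the 20 were called, and 835 genes in all rose and 954 fell, in place of 1332 and 600.

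Among all 35 genes, 13 were called higher in both comparisons with naive: Aars, Cars, Eprs, Farsb, Gars, Hars, Iars, Kars, Lars, Nars, Rars, Sars and Cars2. Farsa, Yars and Yars2 were called in EAE alone. In treated mice Farsa gave 0.32 ± 0.11 (limma-trend adjusted p = 0.0622), Yars 0.35 ± 0.11 (adjusted p = 0.0532) and Yars2 0.43 ± 0.13 (adjusted p = 0.0503). Dars and Mars were called in treated mice alone, at 0.40 ± 0.10 (limma-trend adjusted p = 0.0258) and 0.34 ± 0.10 (adjusted p = 0.0427). A call in one comparison and not in the other does not show a difference between them. The other 17 genes were called in neither.

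In the complex, 7 of 8 enzyme genes rose in treated against naive mice, all but Qars, with a median of 0.40. Outside it, 7 of 12 rose, with a median of 0.43. Over all genes 10.2% rose in this comparison. Wars had a difference of 0.24 ± 0.10 (limma-trend adjusted p = 0.121), and all treated libraries lay above naive. Several of the treated calls were lost when a single library was left out. Dars, Gars, Kars, Mars and Cars2 were not called without treated replicate 2 (limma-trend adjusted p from 0.0529 to 0.0826) or without naive replicate 1 (0.0593 to 0.0949). Gars was also lost without treated replicate 3 (0.08) or naive replicate 2 (0.0746), and Mars without treated replicate 1 (0.0691) or naive replicate 3 (0.0588).

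Of the mitochondrial genes 1 of 15 was called higher in treated against naive mice, beside 10.2% of all genes. It was Cars2, at 0.33 ± 0.09 (limma-trend adjusted p = 0.0298). The median log2 fold change of the 15 genes was 0.08. This median changed sign with the scaling, to -0.04 without scaling and -0.02 with upper-quartile scaling. Of the 15, 11 were positive and 4 (Ears2, Lars2, Wars2 and Sars2) negative, beside 6619 and 6399 of all 13018 genes. The count was 0 without treated replicate 2 or naive replicate 1, and 2 without any of the EAE replicates or naive replicate 2.

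Between treated and EAE mice, which asks what SR59230A did within immunized mice, 0 of the 35 genes were called by limma-trend, and over all genes 0.00768% were, which is 1 gene. At an unadjusted p under 0.05 there were 2 of the 35, against 504 of 13018 over all genes. The median difference of the cytosolic genes was 0.02, and -0.06 without scaling. Their 95% intervals all lay between -0.42 and 0.48, so larger differences lie outside the intervals of these genes. The median of the mitochondrial genes was -0.08, with intervals between -0.62 and 0.49.

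The 2 genes at an unadjusted p under 0.05 differed in direction. Dars was 0.25 ± 0.10 higher in treated than in EAE mice (95% interval 0.02 to 0.48, limma-trend adjusted p = 0.998). Lars2, for mitochondrial leucine, had 268, 287 and 303 in treated, 339, 328 and 356 in EAE, and 312, 337 and 312 in naive libraries. Its treated libraries were lowest of all 9, with a difference of -0.26 ± 0.11 from EAE (95% interval -0.50 to -0.01, limma-trend adjusted p = 0.998). Treated libraries lay wholly below EAE in 1004 of all 13018 genes and wholly above in 1101.

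Partners of the synthetases in protein synthesis gave mixed values. Of 3 scaffold genes of the multi-synthetase complex 1 was called higher in each comparison with naive, beside 10.2% of all genes in treated and 9.13% in EAE. Eef1e1, which encodes the scaffold protein AIMP3, had 1004, 987 and 1035 in treated, 985, 1170 and 987 in EAE, and 717, 770 and 704 in naive libraries. The naive libraries were lowest, and the rise in EAE was 0.52 ± 0.10 (limma-trend adjusted p = 0.00612). Aimp1 had 0.27 ± 0.09 (adjusted p = 0.0582) and Aimp2 0.14 ± 0.20 (adjusted p = 0.671). Of the 4 elongation factor genes tested, 0 were called by limma-trend in either comparison with naive. At an unadjusted p under 0.05 there were 1 in treated and 0 in EAE, a cut that 4054 and 3752 of all 13018 genes passed. The medians of the 4 genes were 0.24 in treated and 0.18 in EAE mice.

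Of 15 cytosolic initiation factor genes, 8 rose in treated and 6 in EAE against naive mice and 0 fell, with medians of 0.36 and 0.27. Over all genes 10.2% rose in treated and 9.13% in EAE, with 4.61% and 5.1% lower. Eif4e, for the cap-binding protein, rose in EAE by 0.49 ± 0.09 (limma-trend adjusted p = 0.00456). Eif2b1, for a subunit of the eIF2 exchange factor, rose by 0.55 ± 0.11 (adjusted p = 0.00635) and Eif3c, for a subunit of eIF3, by 0.57 ± 0.11 (adjusted p = 0.00649). The EAE calls of Eif2s1 and Eif4g1 were lost without naive replicate 1 (limma-trend adjusted p = 0.0859 and 0.0697). In treated mice Eif2b4 was lost without treated replicate 1 or 2, or naive replicate 1 (0.0633 to 0.101). Eif5b was lost there without treated replicate 2 or naive replicate 1 (0.0548 and 0.0537), and Eif3a without treated replicate 3 (0.0503). In mitochondrial translation and amidotransferase genes, 1 of 12 rose in treated and 3 in EAE, with medians of 0.23 and 0.17, and the 1 in treated is a share near that over all genes, 10.2%. The 3 were Tsfm, for a mitochondrial elongation factor, at 0.51 ± 0.11 (limma-trend adjusted p = 0.0132), Gatb, and Gfm1, for the mitochondrial elongation factor G, at 0.33 ± 0.10 (adjusted p = 0.0437). Gatb was not called without naive replicate 1 (limma-trend adjusted p = 0.0635), nor Gfm1 without EAE replicate 2 (0.0614) or naive replicate 2 (0.0539). Of 7 genes for proofreading and transfer RNA ends 1 was called, Elac2, for the enzyme that trims the 3′ end, which rose in EAE by 0.52 ± 0.10 (limma-trend adjusted p = 0.00727).

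The amino acid response was described through its kinases, its transcription factor and known targets. Of 8 genes for eIF2 kinases, their regulators and eIF2 phosphatase subunits, 0 were called by limma-trend in either comparison with naive, with 2 in treated and 1 in EAE at an unadjusted p under 0.05, a cut that 4054 of all 13018 genes passed in treated and 3752 in EAE. Atf4 itself averaged 12126 ± 916 in treated, 13797 ± 2550 in EAE and 12532 ± 2440 in naive libraries (SD, n = 3 each). Its groups overlapped, with a difference of 0.14 ± 0.18 in EAE (limma-trend adjusted p = 0.631). Atf4 is known to be controlled largely at translation, which these values do not measure.

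Of the 19 tested genes of Atf4 and its known targets, 8 rose in treated and 6 in EAE against naive mice, and 0 fell, beside 10.2% and 9.13% higher over all genes. Their medians were 0.44 in treated and 0.46 in EAE mice. Vldlr, for a lipoprotein receptor, had 884, 813 and 835 in treated, 1008, 932 and 1009 in EAE, and 212, 220 and 266 in naive libraries. The naive libraries were far below, and it was 4.27-fold higher in EAE (2.09 ± 0.10, limma-trend adjusted p = 3.89e-07). Mthfd2, for a mitochondrial folate enzyme, had 296, 327 and 331 in treated, 360, 347 and 323 in EAE, and 110, 146 and 131 in naive libraries. It was likewise lowest in all naive libraries and 2.67-fold higher in EAE (1.42 ± 0.14, limma-trend adjusted p = 8.32e-05). Shmt2, for mitochondrial serine hydroxymethyltransferase, rose by 0.69 ± 0.12 (limma-trend adjusted p = 0.00289). Asns, for asparagine synthetase, which makes the amino acid that the Nars product loads, had 88.5, 92.7 and 105 in treated, 112, 139 and 123 in EAE, and 45.6, 67.3 and 44.1 in naive libraries. Its groups did not overlap with naive, and it was 2.40-fold higher in EAE (1.27 ± 0.21, limma-trend adjusted p = 0.00305). Targets linked to cell stress gave mixed values. Nupr1, for a stress-induced nuclear protein, rose in EAE by 1.70 ± 0.38 (limma-trend adjusted p = 0.0131) and Atf3 had 2.44 ± 0.75 (adjusted p = 0.0506), while Ddit3 had -0.12 ± 0.29 (adjusted p = 0.819) and Trib3 -0.57 ± 0.32 (adjusted p = 0.277). In treated mice Nupr1 rose by 1.51 ± 0.38 (limma-trend adjusted p = 0.0223), Ddit4, an inhibitor of mTORC1, by 0.78 ± 0.18 (adjusted p = 0.0155) and Atf3 by 2.73 ± 0.75 (adjusted p = 0.0315). Atf3 was not called there without treated replicate 1, naive replicate 1 or naive replicate 3 (adjusted p = 0.102, 0.09 and 0.0579).

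**Figure D4:**
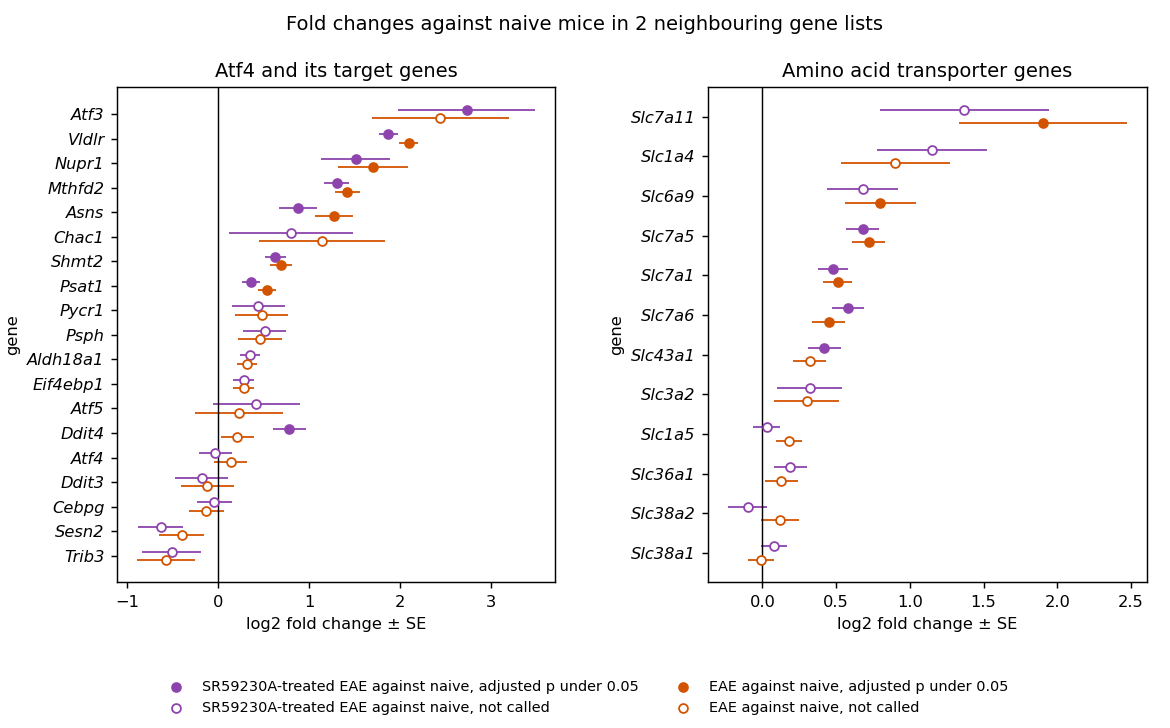
Log2 fold change against naive mice of the 19 tested genes of Atf4 and its targets (left) and the 12 tested amino acid transporter genes (right), in treated EAE (purple) and EAE (orange) mice, with SE bars. Filled points have a limma-trend adjusted p under 0.05, and Vldlr, Mthfd2, Asns and Slc7a5 are filled in both colours while Atf4 lies near 0 and open in both.

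Amino acid transporters supply the substrates of the synthetases. Of 12 tested genes 4 rose in treated and 5 in EAE against naive mice, and 0 fell, beside 10.2% and 9.13% higher over all genes, with medians of 0.45 and 0.38. Slc7a5, for the transporter of leucine and other large neutral amino acids, had 2175, 2209 and 2227 in treated, 2255, 2581 and 1965 in EAE, and 1298, 1429 and 1395 in naive libraries. All libraries of immunized mice lay above naive, with a rise of 0.72 ± 0.11 in EAE (limma-trend adjusted p = 0.00154). Slc7a1, for a transporter of arginine and lysine, rose by 0.51 ± 0.10 (limma-trend adjusted p = 0.0081) and Slc7a6 by 0.45 ± 0.11 (adjusted p = 0.018). The EAE call of Slc7a11 was lost without EAE replicate 2 or 3, or naive replicate 1 or 3 (limma-trend adjusted p from 0.0522 to 0.0945). That of Slc6a9 was lost without EAE replicate 1, or naive replicate 1 or 2 (0.0567 to 0.0894). In treated mice the call of Slc43a1 was lost without naive replicate 1 (0.0514). Slc38a2, for a neutral amino acid transporter known to respond to amino acid shortage, had 0.12 ± 0.13 (limma-trend adjusted p = 0.566).

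Markers of other cells also differed between the groups, and their part in the results was not tested. Mature neutrophil genes summed to 6997 to 15627 in treated, 3136 to 15385 in EAE and 2305 to 6131 in naive libraries. Of 8 such genes 3 rose in treated and 1 in EAE. Over all genes 10.2% rose in treated and 9.13% in EAE, with 4.61% and 5.1% lower, and the 1 in EAE is near that share. The treated calls of S100a8 and S100a9 were lost without treated replicate 2 or 3, or naive replicate 1 or 2 (limma-trend adjusted p from 0.0894 to 0.14). T and NK cell genes summed to 878 to 957 in treated, 850 to 1019 in EAE and 582 to 658 in naive libraries, with no overlap with naive. All 3 tested genes of that list lay wholly above naive in both comparisons, as did 26.4% of all genes in treated and 21% in EAE. Of the 3 genes, 3 were called in treated and 2 in EAE. Cd3g, a T cell gene of the list, was too low to be tested. It averaged 4.5 in treated, 2.97 in EAE and 4.85 in naive libraries, and its groups overlapped. The listed T cell genes Cd3e and Cd3d were not among the deposited symbols. Klrb1c, for the NK cell receptor NK1.1, rose in EAE by 1.46 ± 0.21 (limma-trend adjusted p = 0.00117) and Nkg7, for a granule protein, by 0.54 ± 0.11 (adjusted p = 0.00801). The call of Nkg7 in treated mice was lost without naive replicate 1 (adjusted p = 0.0556). Erythroid genes summed to 226 to 288 in treated, 176 to 227 in EAE and 139 to 179 in naive libraries. Of 4 tested, 1 rose in each comparison with naive, Gata1. Its EAE call was lost without naive replicate 1 (limma-trend adjusted p = 0.0536). B cell genes summed to 948 to 1028 in treated, 770 to 902 in EAE and 908 to 1163 in naive libraries, and of 4 tested 1 fell in EAE, Pax5. Of these lists Ncr1, an NK cell gene, alone was at 0 in some library.

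The genes of the sorted population did not move one way. Ly6a rose in treated by 0.68 ± 0.12 (limma-trend adjusted p = 0.00335) and in EAE by 0.46 ± 0.12 (adjusted p = 0.0226), a call lost in EAE without naive replicate 1 (adjusted p = 0.0619). Kit fell, with -0.45 ± 0.09 in treated (limma-trend adjusted p = 0.00961) and -0.43 ± 0.09 in EAE (adjusted p = 0.0115). Flt3, a receptor gene of multipotent progenitors that was not used in the sort, had -0.27 ± 0.10 in treated (limma-trend adjusted p = 0.0879) and fell in EAE, with -0.44 ± 0.10 (adjusted p = 0.0131). Cd34, likewise not used in the sort, was also lower without being called. It had -0.26 ± 0.10 in treated (limma-trend adjusted p = 0.105) and -0.22 ± 0.10 in EAE (adjusted p = 0.166).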

How the data were processed

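RNA of sorted LSK cells was measured in 9 libraries, grouped by their labels, 3 mice per group. Replicates are numbered in order of deposition, and the numbers link no mice across groups. Whole numbers for 14940 symbols were deposited by the authors in a single table, and their unit is a score. The reason is that on the ln(value + 1) scale, among genes averaging 500 or more, the seventh and the eighth principal component carried 6.7e-05% and 5.94e-05% of the variance, which independent read counts would not give. How the score was made is not given in the sources used here, nor are the aligner, the counting tool or the genome build. DESeq2 is named in the submitters' processing notes, but its use there is not given.

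Library scaling used median-of-ratios factors, which ran from 0.9005 to 1.107. A gene was tested if 3 or more libraries reached 10, on the log2(value + 1) scale, which understates changes of low genes. limma-trend (limma 3.58.1, R 4.3.3) was fitted over all 9 libraries with 1 term for each group plus covariates for the 2 missing directions, so that 4 residual degrees of freedom were left, beside 7.52 of limma's prior. Tests were 2-sided with Benjamini-Hochberg adjustment over 13018 genes. Members and lists were chosen with earlier results of these data known.

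Values per library are given for the 12 called members with the smallest adjusted p in EAE against naive and for Wars. Of each other list up to 3 called genes are named. Farsa, Yars, Dars, Mars, Vars, Yars2, Cars2, Ears2, Lars2, Asns, Slc38a2 and other genes named beyond this rule were chosen after their values were seen. Promoter sequences are from RefSeq, assembly GRCm38.p6, matched by symbol, also with a final 1. The 18 alternatives covered scaling, filter, pseudocount, model terms and leaving out each library. Fits that left out a library held 1 covariate for the missing directions in place of 2.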

Additional observations from a re-analysis of the deposited data

How the results depend on the processing

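No paired analysis was possible because the replicate numbers follow the order of deposition. All 16 synthetase genes called in EAE against naive mice kept a positive fold change under the 18 alternatives, and 8 kept their call under all but the term for the chemosensory receptor share. In treated against naive mice 14 of 15 kept a positive fold change, the exception being Mars, at -0.22 with that term, and 5 kept their call under the others. The chemosensory share does not overlap between the groups, so a model that holds it cannot tell the share apart from the group. With it, calls in EAE against naive were 63 higher and 34 lower in all, 1 cytosolic and 0 mitochondrial, while the cytosolic median was 0.53. In treated against naive they were 18 higher, 7 lower, 0 cytosolic and 0 mitochondrial, with medians of 0.60 and 0.20, and between treated and EAE the cytosolic median was 0.10. For the other settings the cause of the changes was not tested. Without scaling, EAE against naive gave 606 genes higher in all, 8 cytosolic and 0 mitochondrial. In treated against naive it gave 489 higher, 5 cytosolic and 0 mitochondrial, with medians of 0.28 and -0.04. Between treated and EAE the medians without scaling were -0.06 and -0.16. Upper-quartile scaling gave 1 mitochondrial gene and a cytosolic median of 0.32 in EAE against naive. In treated against naive it gave 835 genes higher and 954 lower, 0 mitochondrial, and medians of 0.30 and -0.02. With group coefficients alone, 2062 genes were higher, 1423 lower and 6 mitochondrial in EAE, and 2303 higher, 1617 lower, 3 mitochondrial and 1 synthetase gene lower in treated against naive. With the 6 libraries of each comparison alone, 1070 genes were lower and 6 mitochondrial genes higher in EAE, and 2636 genes higher, 1806 lower, 3 mitochondrial higher and 1 synthetase gene lower in treated against naive. A mean of at least 100 gave 2 mitochondrial genes in treated against naive. Leaving out each library gave 427 to 977 genes lower, 0 to 5 mitochondrial genes higher and a mitochondrial median of 0.15 to 0.27 in EAE against naive. In treated against naive it gave 916 to 2097 genes higher, 318 to 1230 lower, 0 to 2 mitochondrial genes higher and a cytosolic median of 0.37 to 0.45. Depth is unknown, so no limit of detection can be given for the lowest members, Ears2 and Wars2.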
